A study of Mus musculus with 61 samples.

Results

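The genes described here are the 8 core genes that write, copy and erase 5-methylcytosine in the mouse, chosen by name: the DNA methyltransferases Dnmt1, Dnmt3a, Dnmt3b and Dnmt3l, the maintenance factor Uhrf1, and the dioxygenases Tet1, Tet2 and Tet3. All 8 have a row among the 23927 gene rows of the table, and 1 of them, Dnmt3l, was listed at 0 in most cells. They were measured by full-length single-cell RNA sequencing in 61 single cells from ovaries of wild-type CD-1 mice on postnatal day 5, collected 6 hours after 1 intraperitoneal injection. The 4 groups were 16 control oocytes and 16 control granulosa cells after solvent, and 16 doxorubicin oocytes and 13 doxorubicin granulosa cells. Doxorubicin is a topoisomerase II poison used against cancer. The labels write the dose as 10 in mg/kb, a unit that cannot be a dose, and the amount given is therefore uncertain. The labels give a wild-type genotype and 1 batch for all cells, and the series addresses ovarian damage by DNA-damaging drugs.

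Methylation of cytosine in the dinucleotide CpG is laid down by DNMT3A and DNMT3B and copied onto the new strand after replication by DNMT1, which UHRF1 guides to half-methylated sites. DNMT3L has no enzymatic activity of its own and stimulates DNMT3A. The TET enzymes oxidise 5-methylcytosine, which opens a route to its removal. Oocytes enter postnatal life with most of this methylation erased and regain it while they grow, with DNMT3A and DNMT3L as the proteins required. UHRF1 is known as an abundant protein of the oocyte cytoplasm, and TET3 as the maternal dioxygenase that acts on the paternal genome after fertilisation.

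CpG is the substrate of every enzyme named here, so the CpG content of the members' own promoters is shown first, with each CpG in capitals. The 4 windows are the 250 bases before a RefSeq start (GRCm38.p6), read 5′ to 3′ on the gene's strand. Uhrf1 is shown because it had the highest level in oocytes, and Tet3 because its doxorubicin ratio was the largest of the members measured in most oocytes. Both ends of Dnmt1 are shown because this gene is known to use separate first exons in oocytes and somatic cells, which counts per gene do not separate.

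Uhrf1, start 2, chr17:56304063-56304312, plus strand: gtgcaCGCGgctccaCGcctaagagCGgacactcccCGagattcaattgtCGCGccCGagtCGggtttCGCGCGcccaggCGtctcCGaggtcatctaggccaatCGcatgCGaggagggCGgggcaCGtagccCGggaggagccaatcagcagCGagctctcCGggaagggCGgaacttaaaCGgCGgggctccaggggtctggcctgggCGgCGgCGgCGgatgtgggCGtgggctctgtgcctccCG

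Tet3, start 1, chr6:83441679-83441928, minus strand: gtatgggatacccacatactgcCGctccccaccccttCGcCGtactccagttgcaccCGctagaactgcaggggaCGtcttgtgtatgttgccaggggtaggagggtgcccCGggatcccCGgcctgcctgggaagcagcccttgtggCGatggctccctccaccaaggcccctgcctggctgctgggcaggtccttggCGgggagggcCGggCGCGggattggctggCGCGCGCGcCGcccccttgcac

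Dnmt1, start 1, chr9:20959889-20960138, minus strand: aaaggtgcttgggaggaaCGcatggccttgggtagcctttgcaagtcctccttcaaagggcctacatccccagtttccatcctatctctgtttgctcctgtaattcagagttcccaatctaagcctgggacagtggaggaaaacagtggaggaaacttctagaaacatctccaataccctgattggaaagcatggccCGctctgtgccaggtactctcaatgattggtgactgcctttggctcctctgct

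Dnmt1, start 3, chr9:20952624-20952873, minus strand: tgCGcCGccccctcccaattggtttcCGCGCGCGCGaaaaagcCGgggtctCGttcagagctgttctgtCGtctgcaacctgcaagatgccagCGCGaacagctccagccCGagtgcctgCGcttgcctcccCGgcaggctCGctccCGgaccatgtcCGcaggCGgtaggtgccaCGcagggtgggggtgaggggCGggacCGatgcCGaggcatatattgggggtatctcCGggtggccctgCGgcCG

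The Uhrf1 window held 30 CpG, the Tet3 window 17, the outermost Dnmt1 window 2 and the innermost Dnmt1 window 26, against a median of 6 over 32851 promoter windows of the same length. The other windows ranged from 3 to 5 CpG at the starts of Dnmt3l to 51 at Tet2. Among them, start 1 of Uhrf1 held 10 CpG. RefSeq gave 15 starts for the 8 genes. The motif CCAAT, searched on both strands, occurred 2 times in the Uhrf1 window, 1 time in the Tet3 window, 4 times in the outermost Dnmt1 window and 3 times in the innermost, and is present in 33.85% of all windows. CACGTG, searched likewise, occurred 1 time at Dnmt3a start 3 and 1 time at Dnmt3l start 2, and is present in 6.02% of all windows. TTTGGCGC, TTTCCCGC and TAATTG were found in none of the 15 windows, and are present in 0.417%, 0.895% and 7.17% of all windows.

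Each library is 1 cell, and no animal is named for any cell, so each group counts as 1 sample and no test between groups was possible. A group value is the summed count of its cells divided by all their gene counts, on the usual CPM scale. A ratio of 2 group values carries a 95% exact conditional binomial interval, which covers counting error only, and its range when each cell was left out in turn shows how far 1 cell carried it. A gene passed the 2-fold rule when it reached 5 CPM in either group and differed by at least 2-fold, in the same direction, with each cell left out in turn. Totals ran from 6834594 to 31262609 counts per cell. In bulk sums of this kind, fewer cells with a transcript and fewer transcripts per cell cannot be told apart, which the values per cell given below address directly.

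The granulosa label did not match the markers in many libraries. The summed level of 18 oocyte markers ran from 23090 to 54960 CPM in control oocytes, from 357.6 to 15133 CPM in control granulosa cells and from 340.2 to 42173 CPM in doxorubicin granulosa cells. It exceeded the summed level of 18 granulosa markers in 6 of 16 control and 8 of 13 doxorubicin granulosa libraries. Stroma markers exceeded granulosa markers in 5 and 2 of them. Blood and immune markers reached 34686 CPM in doxorubicin granulosa cell 15, against 8594 CPM of its granulosa markers. Among oocytes, 5 control and 5 doxorubicin cells held 200 CPM or more of granulosa markers, and doxorubicin oocytes 9, 11 and 12 stood highest at 2884, 2664 and 2016 CPM. Cdkn1a, a p53 target that arrests the cell cycle, went from 15.7 to 130 CPM in oocytes and from 13.5 to 1161 CPM in granulosa cells with the drug.

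Control oocytes held the transcripts of maintenance methylation far above those of the other members. Per kilobase of the longest transcript, Uhrf1 stood at 300 CPM per kb, Dnmt1 at 68.2, Dnmt3a at 10.0, Dnmt3b at 6.27, Tet2 at 3.11, Tet3 at 1.98 and Tet1 at 0.221, and Dnmt3l was at 0. The order was the same per kilobase of the union of exons and of coding length. In doxorubicin oocytes Tet3 (4.20 CPM per kb) stood above Tet2 (3.88), and Dnmt3l (0.574) above Tet1 (0.160). Over single control oocytes, on the same scale, Uhrf1 ran from 85.3 to 559, Dnmt1 from 11.9 to 138 and Dnmt3a from 0.974 to 16.6 CPM per kb. Neighbours in the order overlapped in this way with 1 exception: the lowest Tet3 value (0.787) lay above the highest Tet1 value (0.769). In control granulosa cells the medians over cells were highest for Dnmt3a (15.8 CPM per kb) and Dnmt1 (3.74), and 0.526 for Uhrf1. In control oocytes 5 to 7 of the 8 genes had at least 5 reads in a cell.

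**Figure D1:**
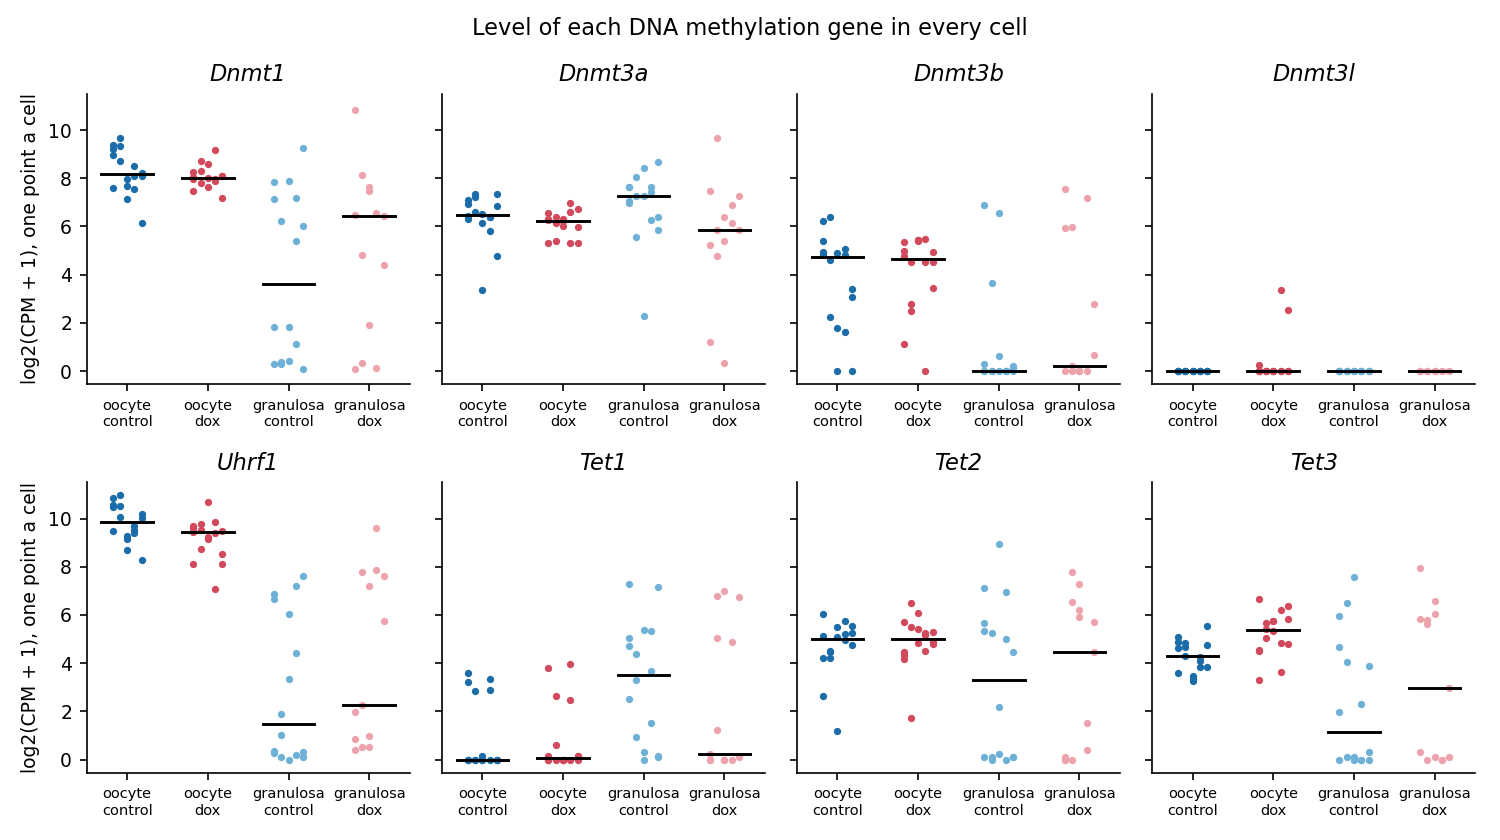
Level of each of the 8 genes in every cell as log2(CPM + 1), 1 panel a gene; points are single cells in the 4 groups and black bars are medians over cells. Oocytes form a narrow band for Dnmt1, Dnmt3a and Uhrf1, while granulosa libraries spread from near 0 to above 6 on this scale for every gene but Dnmt3l, and for Dnmt3a from 3.88 CPM in controls.

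After doxorubicin, oocytes held less Uhrf1 and Dnmt1 and more Tet3 than control oocytes by group sums. Uhrf1 was at 664 against 1074 CPM, Dnmt1 at 291 against 401 CPM, and Tet3 at 45.8 against 21.6 CPM. None of the 6 members that reached 5 CPM passed the 2-fold rule, against 4.19% of 11119 genes that passed it upward and 1.21% that passed it downward. At such low shares a list of 6 genes would most often hold none. The median log2 ratio of the 6 members was -0.31, beside 0.01 over all genes tested.

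Uhrf1, the reader of half-methylated CpG that brings DNMT1 to replicated DNA (ENSMUSG00000001228.14, chr17:56303321-56323486, plus strand), had a lowest, median and highest value of 306, 942 and 2004 CPM in the 16 control oocytes. In the 16 doxorubicin oocytes these values were 135, 688 and 1672 CPM. The groups overlapped, and 3 doxorubicin oocytes, numbers 9, 5 and 11 at 135, 277 and 279 CPM, lay below every control oocyte. The log2 ratio was -0.69 (95% interval -0.70 to -0.68), and it stayed between -0.84 and -0.60 when each cell was left out. Among the 16 doxorubicin oocytes Uhrf1 was lower where the granulosa marker sum was higher (Pearson's r = -0.80, Spearman's rho = -0.77) and where Cdkn1a was higher (r = -0.52, rho = -0.68), values that share a library and its total. The corresponding r values in control oocytes were -0.32 and -0.23. Without the 10 oocytes with 200 CPM or more of granulosa markers the log2 ratio was -0.41. The part of granulosa transcripts in the lower Uhrf1 level was not tested further.

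Dnmt1, the maintenance methyltransferase (ENSMUSG00000004099.16, chr9:20907209-20959888, minus strand), ran from 69.8 through a median of 285 to 810 CPM in control oocytes. In doxorubicin oocytes it ran from 145 through 260 to 571 CPM. Every doxorubicin oocyte lay within the control range, and the control group held both the lowest and the highest oocyte. The log2 ratio of -0.46 ranged from -0.57 to -0.26, the latter without control oocyte 16, the deepest library. The medians over cells differ less than the sums.

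Dnmt3a, the de novo methyltransferase that oocytes depend on (ENSMUSG00000020661.15, chr12:3806007-3914443, plus strand), had 9.43, 88.0 and 161 CPM as lowest, median and highest value in control oocytes. The values in doxorubicin oocytes were 38.6, 74.9 and 124 CPM, all within the control range. An antisense gene, Dnmt3aos, overlaps 133 of its exonic bases. Its log2 ratio was -0.43, with a leave-one-out range of -0.52 to -0.36. Dnmt3b, its paralogue (ENSMUSG00000027478.15, chr2:153649450-153687730, plus strand), was at 0 in 2 control oocytes and 1 doxorubicin oocyte. It reached 82.5 CPM in the highest control and 43.1 CPM in the highest doxorubicin oocyte, with medians of 25.4 and 24.4 CPM. Its log2 ratio of -0.19 became 0.02 without control oocyte 2. Its transcripts share 514 of the 2174 distinct 50-base words (23.6%) of Dnmt3c, a neighbouring paralogue at 5.20 CPM in control oocytes, so reads between these 2 genes could be split.

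Dnmt3l, the cofactor of DNMT3A (ENSMUSG00000000730.13, chr10:78041947-78063622, plus strand), had no read in any of the 16 control oocytes, 16 control granulosa cells or 13 doxorubicin granulosa cells. It had 120 reads in doxorubicin oocyte 4, 65 in doxorubicin oocyte 5 and 2 in doxorubicin oocyte 1, and none in the other 13. Cells with at least 5 reads were thus 2 of 16 (12.5%, exact binomial 95% interval 1.55 to 38.3%) against 0 of 16 (upper bound 20.6%). These intervals cover the drawing of cells from 1 sample in each group and do not compare the treatments. With the control group set to the floor of 3 counts, the doxorubicin group was 68.2-fold higher, and 26.4-fold without doxorubicin oocyte 4. On the log2 scale the ratio was 6.09, and its 95% counting interval began at 5.78. At 1.05 CPM the doxorubicin group did not reach the 5 CPM needed for the 2-fold rule. The series text says that the raw reads of doxorubicin oocyte 4 were lost, and 67 exonic bases of Dnmt3l lie opposite Aire, with the strand setting of the counting not given in the sources used here.

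Tet3, the maternal dioxygenase (ENSMUSG00000034832.15, chr6:83362373-83459084, minus strand), had 8.58, 18.5 and 45.1 CPM as lowest, median and highest value in control oocytes. In doxorubicin oocytes the values were 8.96, 40.7 and 101 CPM. The groups overlapped, but 7 of 16 doxorubicin oocytes lay above every control oocyte: numbers 1, 5, 4, 10, 3, 8 and 2, at 50.1 to 101 CPM. The log2 ratio was 1.08 (95% interval 1.03 to 1.14), a 2.12-fold difference. It missed the 2-fold rule because 2 of the 32 leave-one-out ratios lay below 2-fold, the lowest at 0.96 without doxorubicin oocyte 1. The highest was 1.23. Without doxorubicin oocyte 6, 9 or 16, or control oocyte 15 or 16, Tet3 passed the rule. Among doxorubicin oocytes Tet3 was higher where the total count was higher (r = 0.76, rho = 0.71, n = 16), and among control oocytes it was not so (r = 0.22, rho = 0.06). The part of library depth in the Tet3 level was not tested. Without the oocytes rich in granulosa markers the log2 ratio was 1.14.

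Tet2 (ENSMUSG00000040943.12, chr3:133463679-133545139, minus strand) and Tet1 (ENSMUSG00000047146.17, chr10:62804570-62908996, minus strand), the other dioxygenases, had no such difference in size. The median Tet2 level was 31.4 CPM over control cells and 31.7 CPM over treated cells. Its log2 ratio was 0.32, with a leave-one-out range of 0.17 to 0.42. Tet1 was at 0 in 10 of 16 control and 8 of 16 doxorubicin oocytes, with highest values of 11.1 and 14.7 CPM. At least 5 reads of Tet1 were found in 5 of 16 cells in each oocyte group, and after thinning every cell to the same depth 6 control and 4 doxorubicin oocytes had a read. At 3.17 and 2.29 CPM in the group sums it stayed under the 5 CPM needed for the rule. Its log2 ratio of -0.47 was 0.53 without the oocytes rich in granulosa markers. The summed CPM of the 3 Tet genes ran from 10.5 to 90.2 with a median of 51.2 in control oocytes, and from 26.3 to 153 with a median of 81.1 in doxorubicin oocytes, of which 7 lay above every control.

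**Figure D2:**
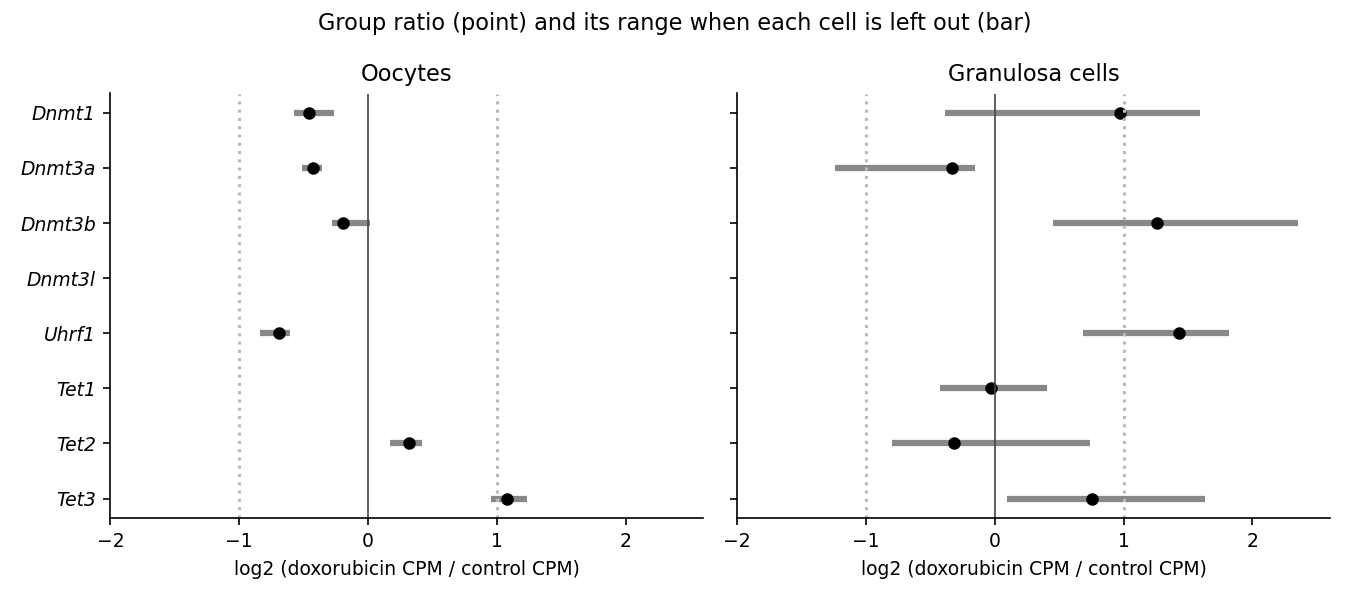
Log2 ratio of doxorubicin to control group CPM (points) with its range when each cell is left out in turn (grey bars), for members at 5 CPM or more in either group; dotted lines mark a 2-fold difference. In oocytes the bars are short and only Tet3, at 1.08, reaches a dotted line, while in granulosa cells the bars of Dnmt1, Tet1 and Tet2 cross 0.

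Tet3 was also set against Uhrf1 within each oocyte, a pair chosen after their values were seen. The log2 of (Tet3 CPM + 1) over (Uhrf1 CPM + 1) ran from -6.23 to -4.41 with a median of -5.71 in control oocytes. In doxorubicin oocytes it ran from -6.38 to -1.76 with a median of -3.64. The value was above every control in 11 of 16 doxorubicin oocytes and below every control in 1. All 5 doxorubicin oocytes with 200 CPM or more of granulosa markers were among these 11, and they were the 5 with the least Uhrf1, at 429 CPM or less against 570 CPM or more in the other 11. Without them 6 of 11 doxorubicin oocytes lay above every control, with a median of -4.11.

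**Figure D3:**
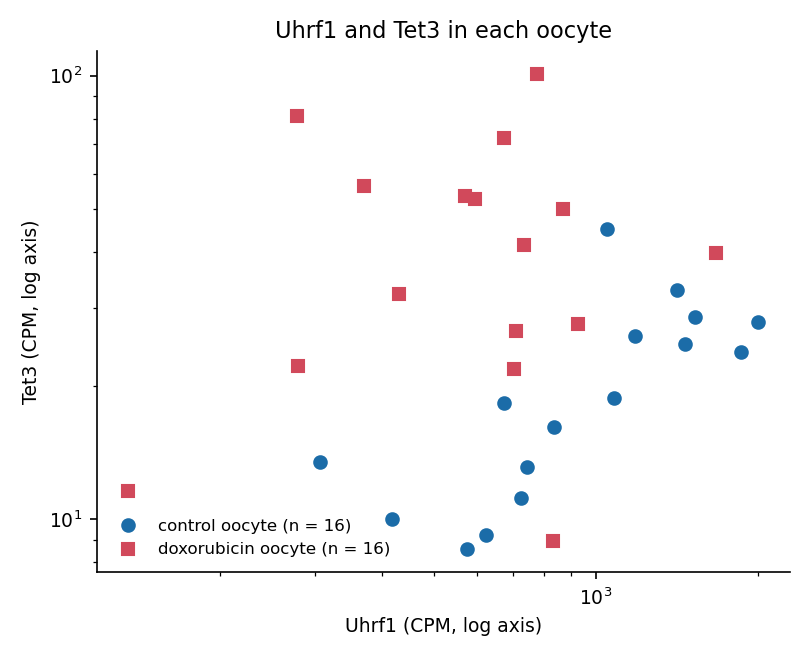
Tet3 against Uhrf1 in each oocyte, both in CPM on log axes; circles are 16 control oocytes and squares 16 doxorubicin oocytes. Control oocytes lie along a rising band (r = 0.75), and 11 of 16 doxorubicin oocytes lie above or to the left of it (r = 0.19), 5 of them rich in granulosa markers.

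Of the 15 pairs among the 6 members found in most oocytes, 10 had a lower Pearson's r in doxorubicin than in control oocytes and 5 a higher one. On log2(CPM + 1) values over 16 control oocytes, Dnmt1 and Uhrf1 had r = 0.86 (rho = 0.82), Uhrf1 and Tet3 r = 0.75 (rho = 0.78), and Dnmt3a and Uhrf1 r = 0.65 (rho = 0.77). Over 16 doxorubicin oocytes the values were 0.18 (rho = 0.13), 0.19 (rho = -0.07) and -0.41 (rho = -0.48). These pairs were chosen after their values were seen, and others did not follow them. Tet2 had a negative or near-zero rho with each other member in control oocytes, from -0.49 with Uhrf1 to 0.01 with Dnmt3b. Its r in the same cells ran from -0.25 with Uhrf1 to 0.40 with Dnmt3a, a pair whose rho was -0.36. Dnmt3b had r = 0.34 with Uhrf1 and 0.35 with Tet3 in control oocytes, and 0.53 and 0.41 in doxorubicin oocytes. Each point shares 1 library, its depth and its mixture of cells, and the difference between the groups was not tested. Zp3, a zona pellucida gene that marks oocyte growth, had r = 0.56 with Uhrf1 and 0.55 with Dnmt1 in control oocytes, and 0.29 and 0.39 in doxorubicin oocytes.

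Among 9695 genes searched over all 32 oocytes, the gene most like Uhrf1 was Gm5648 (r = 0.90), an annotated processed pseudogene, followed by Mtor (0.84) and Gatad2a (0.76). Of the 1538 distinct 50-base words in the Gm5648 transcript, 638 (41.5%) also occur in Uhrf1 transcripts, so reads of these genes cannot be told apart with certainty. Gm5648 itself, at 5.99 CPM in control oocytes and 4.35 CPM after the drug, held few of the reads beside Uhrf1. The genes most like Tet3 were Ell3 (r = 0.80), Mgat4b (0.67) and Nudt1 (0.67), and the closest to Dnmt1 was Zdhhc8 (0.65). Fyco1 was closest to Dnmt3a (0.72), Ctns to Dnmt3b (0.71) and Ccdc126 to Tet2 (0.70). These values also hold the difference between the 2 treatment groups. Taken by group, r of Fyco1 with Dnmt3a was 0.87 in control and 0.15 in doxorubicin oocytes. In the same order it was 0.79 and 0.38 for Zdhhc8 with Dnmt1, and 0.81 and 0.51 for Ccdc126 with Tet2. For Ctns with Dnmt3b it was 0.69 and 0.74, for Ell3 with Tet3 0.75 and 0.80, and for Gm5648 with Uhrf1 0.93 and 0.88.

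In granulosa cells the doxorubicin sums were higher for Uhrf1, Dnmt3b, Dnmt1 and Tet3, and none of these ratios passed the 2-fold rule. Uhrf1 was at 118 against 43.8 CPM, Dnmt3b at 35.5 against 14.8 CPM, Dnmt1 at 194 against 98.7 CPM and Tet3 at 40.9 against 24.2 CPM. The rule was passed by 0 of 7 members tested, beside 10.0% of 12194 genes upward and 9.73% downward. The median log2 ratio was 0.76 for the members and -0.03 for all genes tested. Most cells lay near 0 or far above it, so that 1 library often carried a sum.

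Uhrf1 in control granulosa cells ran from 0 through a median of 1.89 to 196 CPM, and in doxorubicin granulosa cells from 0.311 through 3.74 to 782 CPM. Doxorubicin granulosa cells 2, 6 and 12, at 221, 233 and 782 CPM, lay above every control granulosa cell, and all 3 had more oocyte than granulosa marker. The log2 ratio of 1.43 ranged from 0.69 to 1.82, and Uhrf1 passed the rule without control granulosa cell 5. It was -0.38 without the libraries that hold more oocyte than granulosa marker, and -0.52 when those with more stroma than granulosa marker were also left out, so its direction turned. The oocyte marker sum of the control granulosa group was 6.28% of the control oocyte level and that of the doxorubicin group 29.0%. Single markers did not share 1 proportion: they ran from 0% (Oosp1) to 31.6% (Ooep) in control and from 0.247% (Ddx4) to 1281% (Oosp1) in doxorubicin granulosa cells, with medians of 4.60% and 26.9%. No amount of Uhrf1 from oocytes can therefore be read from the sum, and the part of oocyte transcripts in the members' granulosa levels was not tested.

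Dnmt1 ran from 0.0752 through a median of 21.9 to 607 CPM in control granulosa cells, and from 0.0758 through 84.7 to 1829 CPM in doxorubicin granulosa cells. Doxorubicin granulosa cell 1 alone held 63.6% of its group's Dnmt1 reads. The log2 ratio of 0.97 turned to -0.39 without that library and was -0.03 and 0.24 under the 2 marker rules.

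Dnmt3a had at least 5 reads in 16 of 16 control and 12 of 13 doxorubicin granulosa cells, with 3.88, 153 and 407 CPM as lowest, median and highest control value. In doxorubicin granulosa cells the values were 0.247, 56.7 and 825 CPM, and 2 lay below every control and 1 above. Its log2 ratio of -0.33 was -1.24 without doxorubicin granulosa cell 9, which held 51.4% of the group's reads, and the gene then passed the 2-fold rule downward. Under the 2 marker rules the ratio was -0.98 and -1.25.

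Dnmt3b was at 0 in 9 of 16 control and 6 of 13 doxorubicin granulosa cells and had at least 5 reads in 4 and 6. The highest values were 117 CPM in control granulosa cell 16 and 185 CPM in doxorubicin granulosa cell 8. The log2 ratio of 1.26 ranged from 0.45 to 2.35, and Dnmt3b passed the rule when control granulosa cell 8 or 16 was left out. Under the 2 marker rules Dnmt3b was at 52.8 CPM in 5 and 66.3 CPM in 4 doxorubicin granulosa cells against 0.982 CPM in 10 control cells, a log2 ratio of 5.75 and 6.08 that passed the rule. These few doxorubicin cells ran from 0 to 185 CPM, with medians of 0.589 and 30.8 CPM against 0 in the control cells. Both rules leave out control granulosa cells 8 and 16, which held 92.3 and 117 CPM of Dnmt3b. Neither rule looks at blood and immune markers. Doxorubicin granulosa cell 15, which held more of these than of granulosa markers, was kept by both and had 61.6 CPM of Dnmt3b.

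Levels of the Tet genes also differed widely among granulosa cells. Tet1 ran from 0 through a median of 10.4 to 153 CPM in controls and from 0 through 0.162 to 128 CPM after doxorubicin, while the group sums were 30.1 and 29.4 CPM (log2 ratio -0.03). Under the rule on oocyte markers the Tet1 ratio was -0.66, with 27.4 CPM in 5 doxorubicin and 43.4 CPM in 10 control cells, and did not pass. With stroma-rich libraries also left out it was -2.67, at 6.83 CPM in 4 doxorubicin cells, and passed. The highest of these 4 was the blood-marker-rich doxorubicin granulosa cell 15, at 32.3 CPM. The rules differ by 1 library, doxorubicin granulosa cell 13, which held 107 CPM of Tet1. Control granulosa cell 3 held 55.3% of the control Tet2 reads at 494 CPM, and without it the Tet2 log2 ratio moved from -0.32 to 0.74. Tet3 had a log2 ratio of 0.76 that was 0.10 without doxorubicin granulosa cell 1, and was 0.98 and 1.26 under the 2 marker rules.

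**Figure D4:**
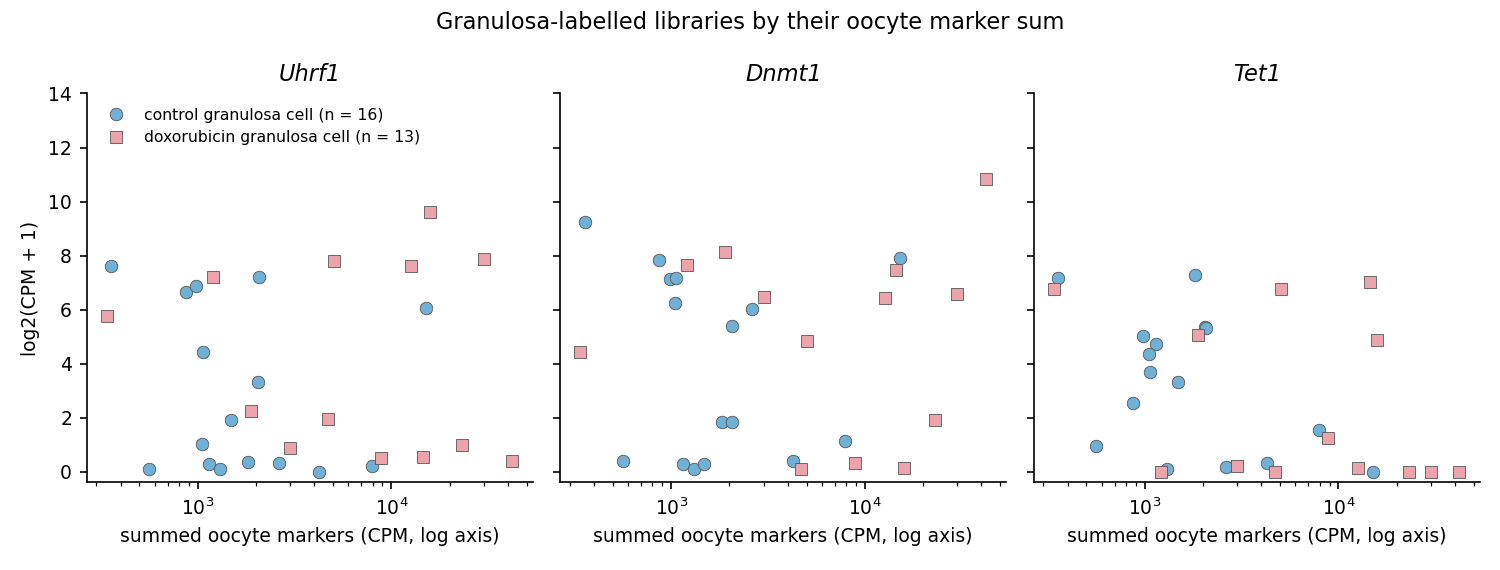
Uhrf1, Dnmt1 and Tet1 as log2(CPM + 1) against the summed CPM of 18 oocyte markers (log axis) in 16 control (circles) and 13 doxorubicin (squares) granulosa-labelled libraries. The 3 doxorubicin libraries with the most Uhrf1 have oocyte marker sums between 5048 and 30019 CPM, yet the library with the largest sum, 42173 CPM, has 0.311 CPM of Uhrf1.

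Between the cell types, control oocytes held more Uhrf1 and Dnmt1 and less Tet1 than control granulosa cells, and this comparison shares the control cells with both treatment comparisons. Uhrf1 was above every control granulosa cell in all 16 control oocytes, with a log2 ratio of 4.61, or 24.5-fold, and at least 4.50 with each cell left out. Dnmt1 had a log2 ratio of 2.02 (1.82 to 2.64), and its cells overlapped, with 3 control oocytes above every granulosa cell. Tet1 had a log2 ratio of -3.24 (-3.78 to -2.81), at 3.17 CPM in oocytes and 30.1 CPM in granulosa cells, and its cells overlapped. With 2 of 7 members passing upward and 1 downward, beside 26.8% and 22.6% of 12373 genes, the count is near the background and is no result about the members as a group. Dnmt3a (-0.79), Dnmt3b (0.87), Tet2 (-1.11, or -0.05 without control granulosa cell 3) and Tet3 (-0.16) did not pass. Dnmt3b passed upward without control granulosa cell 8 or 16 and under both marker rules (4.79), which leave out both of these cells.

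After doxorubicin the 2 cell types differed in Uhrf1 and Tet1 as well. Uhrf1 had a log2 ratio of 2.49 (2.34 to 3.24) and 4.07 and 4.20 under the 2 marker rules. Tet1 had -3.68 (-4.24 to -3.29), and -3.58 and -1.57 under the marker rules, where the latter no longer passed. Dnmt1 was at 0.59 with all cells and passed, at 1.94, without doxorubicin granulosa cell 1. The background was 24.8% of 12428 genes upward and 17.8% downward, against 1 of 7 members in each direction.

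Other genes of the pathway, in lists chosen with earlier results of these data known, passed the rule in oocytes in 2 cases upward and none downward, near the 4.19% upward and 1.21% downward over all genes. Of 9 partners of maintenance methylation, Pclaf, a PCNA-binding factor, passed the rule upward in doxorubicin oocytes at 8.11 against 1.61 CPM, and its log2 ratio turned from 2.33 to -1.16 without the oocytes rich in granulosa markers. None of 15 regulators of de novo methylation and imprints passed: Dppa3, known to keep UHRF1 out of the nucleus in oocytes, was at 3496 against 3573 CPM and Kdm1b, a histone demethylase needed for oocyte imprints, at 815 against 869 CPM. None of 17 base excision and TET partners, 5 methyl-CpG readers and 12 methyl donor genes passed. Of 15 S phase genes Rrm2, a subunit of ribonucleotide reductase, passed upward at 76.4 against 31.7 CPM, and did not pass without those oocytes (0.92). The list medians lay between -0.18 and 0.14.

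In granulosa cells, of 15 S phase genes 3 passed downward and none upward, beside 9.73% and 10.0% of all genes. These were Ccne2 (0.105 against 20.9 CPM), Mki67 (27.9 against 123) and Mcm6 (176 against 440), with a list median of -0.64. Medians over cells were 0 against 0.0441 CPM for Ccne2, 0.0842 against 0.136 for Mki67 and 199 against 423 for Mcm6. Under the 2 marker rules 1 and 2 of the 15 passed downward, beside 11.5% and 16.4% of all genes. Stroma markers moved the same way, with 4 of 8 passing downward and a median of -1.42, and their part in the S phase values was not tested. Of these, Ccne2 passed under both marker rules, and neither Mki67 (-1.15 and -0.82) nor Mcm6 (-0.97 and -1.31) passed under either. Neil3 and Mbd4, DNA glycosylases, and Cxxc5, a CpG-binding zinc finger protein, passed downward (log2 ratios -7.31, -5.73 and -1.39) and also under both marker rules. The median over cells was 0 in both groups for Neil3 and for Mbd4, and 5.90 against 80.4 CPM for Cxxc5. Pclaf fell by 3.06 on the log2 scale. Zfp57, a keeper of imprints, had a log2 ratio of 3.35, Dppa3 1.56, Dmap1, a DNMT1 partner, 1.88 and Mat2b, a methionine adenosyltransferase subunit, 1.32, and each was 117 CPM or more in both oocyte groups. Under the rule on oocyte markers these 4 ratios were 1.26, 0.16, 1.59 and 0.32 and none passed, while Dmap1 passed with stroma-rich libraries also left out (1.77). Mtr, methionine synthase, and Zbtb4, a methyl-CpG reader, passed upward (1.53 and 4.44) and not under either marker rule.

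**Figure D5:**
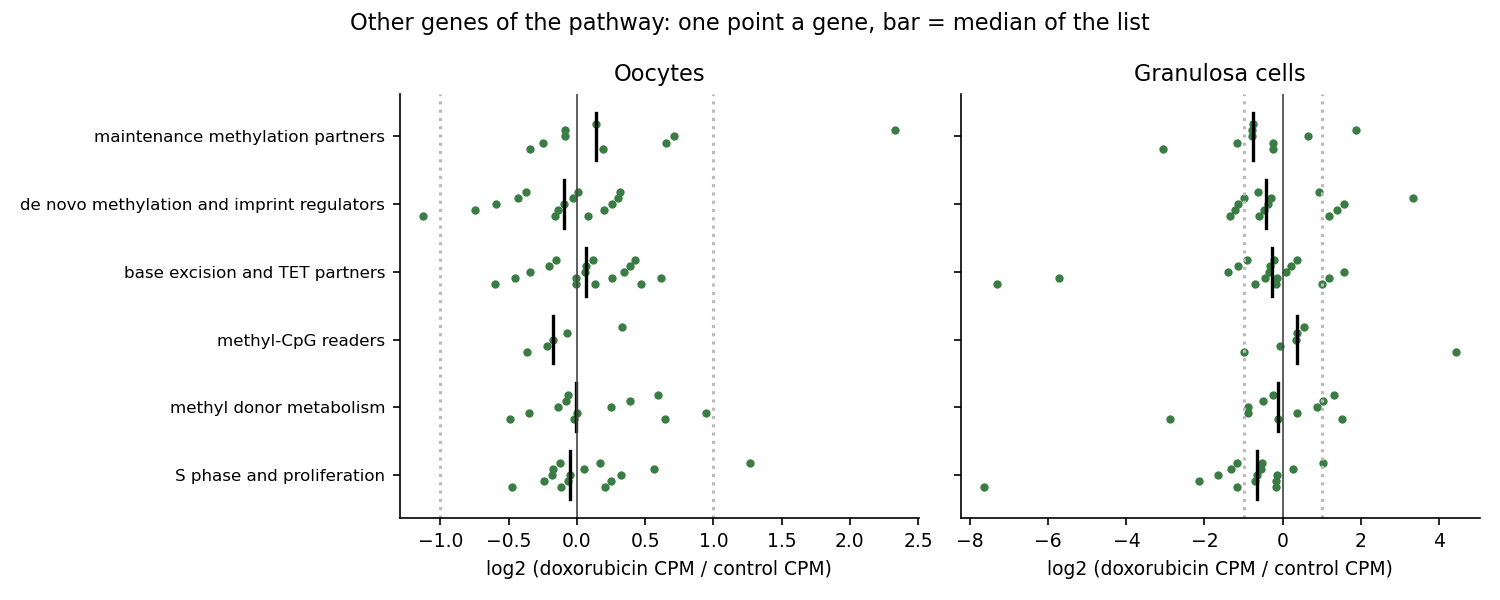
Log2 ratio of doxorubicin to control group CPM for each gene at 5 CPM or more in 6 lists around the members (points), with the list median (black bar) and dotted lines at a 2-fold difference; the 2 panels have different horizontal scales. Medians in oocytes lie between -0.18 and 0.14, and in granulosa cells between -0.77 for maintenance partners and 0.36 for methyl-CpG readers.

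Between the cell types, control oocytes held more Kdm1b (869 against 38.1 CPM), Zfp57 (131 against 6.91), Dppa3 (3573 against 499), Dnmt3c (5.20 against 0.867), Usp7, which stabilises UHRF1 (318 against 120), and Dmap1 (439 against 66.5). Control granulosa cells held more Idh1 (564 against 43.4 CPM) and Idh2 (694 against 31.4 CPM), which make the cosubstrate of the TET enzymes, and more Gadd45b, a stress-induced factor tied to demethylation (log2 ratio -4.12). Each of these 9 passed the 2-fold rule. Of the 9 maintenance partners 2 passed upward and 1 downward in oocytes. The latter was Pclaf, at 1.61 against 63.4 CPM (log2 ratio -5.30). Smug1, a uracil glycosylase, was at 31.4 CPM in control oocytes and had 2 reads in all control granulosa cells. No methyl-CpG reader passed, with Mbd3 at 257 against 164 CPM. Of the de novo and imprint list 4 of 15 passed upward and 1 downward, and of the base excision and TET list 4 and 6 of 18, counts to be read against the 26.8% of all genes that passed upward and the 22.6% that passed downward. Of 15 S phase genes, Mki67 (37.0 against 123 CPM) and Top2a (36.0 against 190 CPM) passed downward in oocytes by group sums. Medians over cells went the other way for both, with Top2a at 28.1 CPM in control oocytes and 2.56 in control granulosa cells. For Mki67 the control granulosa median was 0.136 CPM, below the control oocyte median. Without control granulosa cell 5 the log2 ratio of Top2a moved from -2.40 to -1.61, and that of Mki67 from -1.74 to -1.20. Mcm5 (432 against 180 CPM) and Gins2 (222 against 95.5 CPM), of the replicative helicase, passed upward. Among methyl donor genes Mat2b (558 against 78.8 CPM) and Gnmt, a glycine methyltransferase (9.43 against 1.87 CPM), passed upward. After doxorubicin, Kdm1b (815 against 99.7 CPM), Usp7 (351 against 69.4), Hells, a chromatin remodeller needed for methylation (78.9 against 24.1), and Mthfd1, of folate metabolism (202 against 49.7), passed upward in oocytes. Uhrf2, the paralogue of Uhrf1, passed downward (14.9 against 45.5 CPM), and so did Idh1 and Idh2.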

How the data were processed

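Each cell's mRNA was amplified with the SMART-seq v4 kit and tagged with Nextera XT, per the labels' protocols. The values the authors deposited are estimated counts, 1 row a gene and 1 column a cell, and 32.3% of those above 0 are not whole (tolerance 1e-06). The submitters' processing notes name Partek, Bowtie2, HISAT2, DESeq2 and mm10, with no role. Strand and annotation are not given in the sources used here.

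Counts were rounded and summed per group (Python 3.11.15), and groups under 3 counts were set to 3. Intervals are exact and cover counting error only. Alternatives were TMM (edgeR 4.0.16) and DESeq2 1.42.0 factors, other filters, other ways to combine cells, and subsets of cells. The steps were tested on simulated data with sampling noise only. That simulation does not show how the 2-fold rule behaves at the spread between real cells. Gene positions come from GENCODE M21 (GRCm38). Rows with date-like names (22, with 0.144% of counts) stayed in totals only. Even the 2 most similar cells of a group differed far beyond sampling noise (chi-square over its degrees of freedom 56.7).

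The members and lists were chosen with earlier results of these data known. Named genes are the 8 members and, per list and comparison, up to 4 genes past the 2-fold rule with the largest smallest leave-one-out ratio, or the 2 at the highest level where none passed. The stroma rule, the list counts on subsets and the Tet3 to Uhrf1 ratio were chosen after seeing the data.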

Additional observations from a re-analysis of the deposited data

Results flagged for a closer look

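Uhrf1 had a log2 ratio of doxorubicin to control of -0.69 in oocytes and of 1.43 in granulosa cells, so the 2 cell types went in opposite directions, also with each cell left out in turn. The difference between the cell types was not tested, since each group is 1 sample. In granulosa cells the direction turned to -0.38 without the libraries that hold more oocyte than granulosa marker.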

How the results depend on the processing

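No paired analysis was possible because each library is 1 cell, no animal is named and the result comes from no test. Each group is 1 sample, the intervals cover counting error, and Dnmt3l and Tet1 stayed under 5 CPM in both oocyte groups. Tet1 had a read in 6 control and 8 doxorubicin oocytes at full depth, and in 6 and 4 after thinning. The part of depth in the low values of these 2 genes was not tested further. In oocytes after doxorubicin the members' median of -0.31 was -0.20 as an equal-weight mean, -0.0903 from medians over cells and -0.14 without the oocytes rich in granulosa markers. The count of 0 members past the rule was 1 from medians over cells (Tet3) and 1 with no filter (Dnmt3l). Leaving out each cell gave 0 to 1 members and medians of -0.40 to -0.15. In granulosa cells the count of 0 was 3 from medians over cells, 1 without libraries with more oocyte than granulosa marker and 2 when stroma was added. The median of 0.76 was 0.82 as an equal-weight mean, 0.54 with no filter and -0.0312 and -0.0839 under those 2 rules. The value with no filter includes Dnmt3l, which had no read in either group, so its ratio reflects only the floor and the group totals. Leaving out each cell gave 0 to 1 members (Dnmt3a without doxorubicin cell 9, Uhrf1 without control cell 5, Dnmt3b without control cell 8 or 16) and medians of 0.0675 to 1.12. Between control cell types the count of 3 was 5 from medians over cells, and the median of -0.16 was -0.29 as an equal-weight mean, 3.14 from medians over cells and 0.11 under either marker rule, with 3 to 4 members and -0.31 to 0.71 on leaving out each cell. Between doxorubicin cell types the count of 2 was 4 from medians over cells and 1 with stroma added. The median of -0.47 was -0.55, 1.61, -0.42 with DESeq2 factors, -0.16 with no filter, -0.15 and -0.0669 under the marker rules and -0.37 without the oocytes rich in granulosa markers, with 2 to 3 members and -0.60 to 0.22 on leaving out each cell. Apart from single cells left out, 52 of 56 member ratios kept their sign in oocytes and 57 of 64 in granulosa cells. Between control and between doxorubicin cell types, 66 of 72 and 66 of 72 did so. The settings with other filters are among them. A filter changes which genes are tested and no member's ratio, so those signs were kept by construction. These counts include Dnmt3l, which had no read in either group in granulosa cells or between control cell types. Its sign there reflects the floor and the group totals alone, and was counted as kept in 7 of 8 and 7 of 9 values. Beyond the alternatives' own construction, the cause was not tested.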

Other observations

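Doxorubicin granulosa cell 1 combined values that no oocyte held together. Its oocyte marker sum of 42173 CPM lay within the range of control oocytes, its Dnmt1 level of 1829 CPM was above the highest oocyte (810 CPM), and its Uhrf1 level of 0.311 CPM was far below the lowest oocyte (135 CPM). Tet3 was at 249 CPM in it, also above the highest oocyte (101 CPM), and Tet1 and Tet2 were at 0. Doxorubicin granulosa cell 12 had the reverse pattern, with 782 CPM of Uhrf1 and 0.104 CPM of Dnmt1 at an oocyte marker sum of 15896 CPM. In every one of the 32 oocytes both Dnmt1 and Uhrf1 were at 69.8 CPM or more.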
